A study of Mus musculus with 12 samples.

Results

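Ptpn11D61Y is an activating allele of Ptpn11, the gene of the protein tyrosine phosphatase SHP2, and the comparison described here is that of unstimulated hippocampal slices carrying it against control slices. The 3 Ptpn11D61Y animals were heterozygous both for a conditional floxed Ptpn11D61Y allele and for Emx1-IREScre. The 3 control animals carried the same conditional allele but no Emx1-IREScre by the sample labels, whereas the study's methods describe controls with wild-type Ptpn11 and the Emx1-IREScre allele, and the arrays do not settle which is right. All animals were 8 to 11 weeks old. Slices 350 µm thick received the vehicle DMSO for 10 min and then 3 h in artificial cerebrospinal fluid, and total RNA of 1 animal was hybridised to each array. The other 6 arrays of the series carry slices that are taken, by replicate number, to be of the same animals. Those slices were exposed for 10 min to 2.5 mM 4-aminopyridine, a potassium channel blocker, and 50 µM bicuculline, a GABA-A receptor blocker. Cre under the Emx1 promoter acts in astrocytes and excitatory neurons of the forebrain per the study. A slice also holds vessels, microglia, interneurons and oligodendrocytes, and whether Cre acted in any of these was not tested. Each value is the level of 1 gene on 1 array, and the genes described are those whose transcript cluster (the probes of 1 gene on the array) has exactly 1 gene symbol and a mean log2 signal of at least 5 over the 6 basal arrays, with the brightest cluster taken for each gene. These were 16273 genes, out of 22180 with a symbol of their own and 41345 clusters in all, and 5907 genes lay under the minimum signal.

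SHP2 binds phosphorylated receptors and adaptors such as GAB1 and FRS2 and passes their signal on to Ras and the kinases RAF, MEK and ERK. Activating mutations of PTPN11 cause Noonan syndrome. In the hippocampus, pyramidal and granule neurons carry the excitatory circuit, oligodendrocyte precursors are marked by the PDGF receptor Pdgfra, and the mature oligodendrocytes that derive from them make myelin. Interferons induce antiviral genes in most cell types of the brain through STAT transcription factors.

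A gene was taken as higher or lower when its fold difference was at least 1.5 and its unadjusted limma p was under 0.05. The methods of the study used this pair of limits too. This filter was passed by 538 of all 41345 clusters (1.3%) and by 95 of the 16273 genes (0.584%). Of these genes 72 (0.442%) were higher and 23 (0.141%) were lower in Ptpn11D61Y slices. The split turned the other way with array weights (273 higher and 387 lower), from replicates 2 and 3 alone (162 and 224) and without control replicate 1 (61 and 96). An unadjusted p under 0.05 alone was reached by 610 clusters (1.48%) and 133 genes (0.817%), a share below the threshold itself. After Benjamini-Hochberg adjustment no cluster had a p under 0.05 in limma (smallest adjusted p = 0.894, adjusted p = 1 for every one of the 16273 genes) or in a one-way ANOVA of the 2 groups, where 226 genes had an unadjusted p under 0.05. Each gene named below is therefore described by its levels and error, and none is a call at that level. With 3 arrays a group, an exact two-sided permutation test of a single gene cannot give a p under 0.1. With the replicate number as a block, 176 genes passed the filter, of which 140 were higher and 92 were among the 95.

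Differences were small for most genes. The median log2 difference over the 16273 genes was 0.00, with 5th and 95th percentiles of -0.31 and 0.38 and a median standard error of 0.29, and 8272 genes (50.8%) lay above 0. The genes past the filter were more often of low signal: 45 of 4780 genes (0.941%) with a mean log2 signal between 5 and 6 passed, against 4 of 3247 (0.123%) with a signal of 8 or more. Those 4 were Slc12a2 and Mag, which were higher, and Nr2f2 and Crym, which were lower. The higher genes differed by 1.5- to 11-fold and the lower ones by 1.51- to 2.72-fold. All 3 Ptpn11D61Y arrays lay above all 3 control arrays for 322 of the genes (1.98%) and below them for 250 (1.54%). Either way this was 3.52% of the genes. For exchangeable arrays such a separation, either way, has a probability of 0.1 per gene. Of the genes past the filter the groups were apart for 53 of the 72 higher and 9 of the 23 lower ones.

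**Figure D1:**
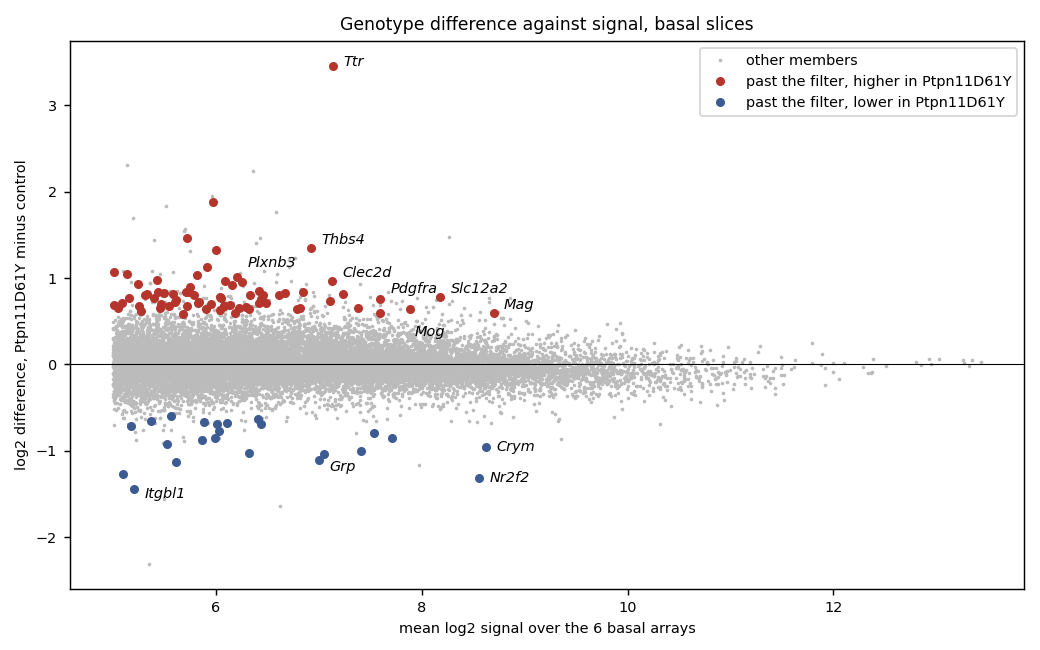
Difference in log2 signal between basal Ptpn11D61Y and control slices (vertical axis) against the mean log2 signal over the 6 basal arrays (horizontal axis), 1 point a gene for 16273 genes. The 72 higher (red) and 23 lower (blue) genes past the filter lie mostly at log2 signals under 7, and Nr2f2, Crym, Mag and Slc12a2 are the 4 at 8 or more.

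Single arrays stood apart. Control replicate 1 held the lowest of the 6 values for 48 of the 72 higher genes (66.7%) and for 41.3% of all 16273. Control replicate 3 held the highest value for 14 of the 23 lower genes (60.9%) and for 21.5% of all. Ptpn11D61Y replicate 3 alone carried choroid plexus genes at a high level. Transthyretin, Ttr, had log2 signals of 6.42, 7.18 and 13.01 on the 3 Ptpn11D61Y arrays, against 6.47, 4.72 and 5.04 on the control arrays. The summed signal of the 9 choroid plexus genes ranged from 678 to 15200 on Ptpn11D61Y arrays and from 534 to 638 on control arrays, and none of the 9 was at 0. Without Ptpn11D61Y replicate 3 the difference of Ttr was 1.39, against 3.46 with all arrays, and it missed the filter without control replicate 2 (3.11) or control replicate 3 (3.27). Clic6, the other leading gene of the list, differed by 1.95 ± 0.93 and did not pass. Without Ptpn11D61Y replicate 3, 60 genes passed the filter, and 29 of the 72 higher and 7 of the 23 lower genes still did. Without control replicate 1, 27 higher and 15 lower genes did, and without control replicate 3, 43 and 5. Between 49 and 52 of the higher and between 11 and 17 of the lower genes still passed when any one of the other 3 arrays was left out.

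Genes of the oligodendrocyte lineage were the largest group of cell type markers among the higher genes. Of 15 markers of oligodendrocyte precursors, 14 lay above 0 with a median log2 difference of 0.41, against 50.8% of all genes with a median of 0.00. Pdgfra, Matn4 and C1ql1 passed the filter as higher. Of 17 markers of mature oligodendrocytes and myelin, all lay above 0 with a median of 0.48, and Gsn, Plxnb3, Aspa, Mag, Mog and Erbb3 passed as higher. No gene of either list passed as lower. Of all 16273 genes 0.442% passed as higher and 0.141% as lower. Genes of the list that a bulk sample shows at a higher level can come from more cells of the type or from more RNA per cell, and these cannot be told apart here. The lists were drawn up with earlier results of these data known. Without the genes that those results had named, 13 of 14 precursor markers (median 0.40, 2 past the filter) and 14 of 14 mature markers (median 0.47, 3 past the filter) lay above 0.

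Pdgfra, the receptor through which PDGF drives the division of precursors, had log2 signals of 7.90, 7.92 and 8.10 on the Ptpn11D61Y arrays, against 6.99, 7.48 and 7.20 on the control arrays. The groups did not overlap, and the 3 Ptpn11D61Y values lay closer together than the control values. The difference was 0.75 ± 0.18 (log2, SE of the limma fit, 3 arrays a group, 1.68-fold), and Pdgfra passed the filter whichever array was left out (0.63 to 0.88). Matn4, a matrilin of the extracellular matrix, had 6.44, 6.31 and 6.16 on the Ptpn11D61Y arrays, against 5.11, 5.60 and 6.09 on the control arrays. The groups did not overlap, but control replicate 3 came close to the lowest Ptpn11D61Y array. The difference of 0.70 ± 0.25 was 0.46 and missed the filter without control replicate 1. C1ql1, a secreted C1q-like protein that organises synapses, had 7.77, 8.00 and 7.89 on the Ptpn11D61Y arrays, against 6.94, 7.21 and 7.72 on the control arrays. Here too control replicate 3 lay next to the Ptpn11D61Y arrays, and the difference of 0.60 ± 0.24 missed the filter in 4 of 6 fits without 1 array, with Ptpn11D61Y replicate 2 (0.54), Ptpn11D61Y replicate 3 (0.59), control replicate 1 (0.42) or control replicate 2 (0.56) left out. The other precursor markers did not pass the filter, among them Gpr17 (0.44 ± 0.26), Cspg4, the NG2 proteoglycan (0.39 ± 0.29), Olig1 (0.43 ± 0.32), Olig2 (0.42 ± 0.64) and Sox10 (0.59 ± 0.65). Sox6 was the only precursor marker below 0 (-0.05 ± 0.18).

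Plxnb3, a plexin receptor for semaphorins, had the largest difference of the myelin list. Its log2 signals were 6.83, 6.75 and 6.55 on the Ptpn11D61Y arrays, against 5.03, 6.01 and 6.08 on the control arrays. The control arrays were all lower, replicate 1 by the widest margin. The difference was 1.01 ± 0.27 (2.01-fold) and 0.67 without control replicate 1, still past the filter. Aspa, the oligodendrocyte enzyme that cleaves N-acetylaspartate, had 6.79, 6.32 and 6.18 on the Ptpn11D61Y arrays, against 5.50, 5.76 and 5.73 on the control arrays (0.77 ± 0.22). The groups were apart, and Aspa passed the filter whichever array was left out. Gsn, the actin-severing protein gelsolin, had 7.62, 7.78 and 7.71 on the Ptpn11D61Y arrays, against 6.82, 7.24 and 7.08 on the control arrays (0.66 ± 0.17), and 0.54 without control replicate 1, short of the filter. Its 3 Ptpn11D61Y values spanned a narrower range than its control values.

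The myelin membrane proteins Mag and Mog were the brightest genes of the lineage past the filter. Mag had 8.89, 9.36 and 8.74 on the Ptpn11D61Y arrays, against 8.39, 8.67 and 8.15 on the control arrays. The groups were apart by a small margin between Ptpn11D61Y replicate 3 and control replicate 2, and the difference of 0.60 ± 0.23 missed the filter without Ptpn11D61Y replicate 2 (0.42) or control replicate 3 (0.47). Mog had 7.97, 8.57 and 8.08 on the Ptpn11D61Y arrays, against 7.28, 7.90 and 7.49 on the control arrays. These groups were apart by a small margin between Ptpn11D61Y replicate 1 and control replicate 2. Replicate 2 was the highest array of both genotypes. The difference of 0.65 ± 0.26 missed the filter without Ptpn11D61Y replicate 2 (0.46), control replicate 1 (0.51) or control replicate 3 (0.61). Erbb3, the neuregulin receptor of oligodendrocytes and Schwann cells, had 6.18, 5.80 and 5.92 on the Ptpn11D61Y arrays, against 5.21, 5.27 and 5.24 on the control arrays. Its groups were well apart (0.73 ± 0.31), with an SD of 0.20 on the Ptpn11D61Y arrays and 0.03 on the control arrays. The filter was still missed in 5 of 6 fits without 1 array. The difference was then 0.62 without Ptpn11D61Y replicate 1 and 0.75 without Ptpn11D61Y replicate 3. It was 0.71, 0.74 and 0.73 without control replicates 1, 2 and 3. The error of Erbb3 was pooled with the stimulated arrays. Its levels there were 6.38, 5.39 and 5.48 in Ptpn11D61Y slices, against 5.64, 4.80 and 4.89 in control slices. The structural myelin genes did not pass the filter: Mbp by 0.13 ± 0.29, Mobp by 0.22 ± 0.30, Cnp by 0.47 ± 0.39, Mal by 0.27 ± 0.60 and Cldn11 by 0.48 ± 0.41. Myrf, the transcription factor that drives myelin genes, differed by 0.25 ± 0.34.

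**Figure D2:**
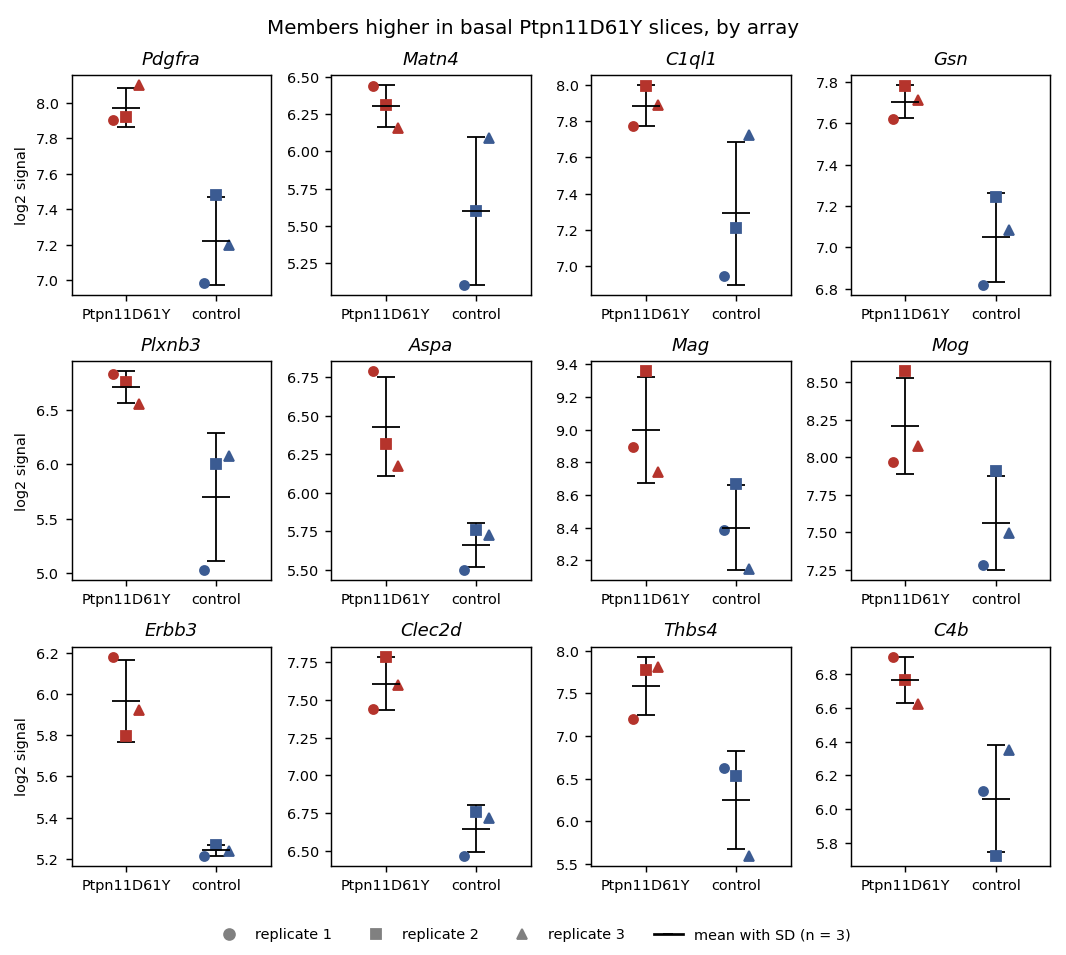
Log2 signal of 12 genes past the filter and higher in basal Ptpn11D61Y slices (red) than in control slices (blue), 1 point an array with the mean and SD of 3 arrays, the marker shape giving the replicate number, and each panel with its own vertical axis. In every panel the 3 Ptpn11D61Y arrays lie above the 3 control arrays, with small gaps in Matn4 and C1ql1 at control replicate 3.

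Over the whole lists, levels varied with the replicate number as well as with genotype. Relative to the control mean, the median of the myelin list was 0.12, 0.83 and 0.48 on Ptpn11D61Y replicates 1, 2 and 3, against -0.23, 0.29 and -0.05 on control replicates 1, 2 and 3. Each Ptpn11D61Y array lay above the control array of its number, while Ptpn11D61Y replicate 1 lay below control replicate 2. The precursor list gave 0.11, 0.51 and 0.48 on the Ptpn11D61Y arrays, against -0.24, 0.09 and 0.23 on the control arrays, with the same order within each number. Leaving out 1 array moved the median difference of the myelin list between 0.28 and 0.73 and that of the precursor list between 0.27 and 0.56. The summed signal of the myelin list ranged from 7083 to 12210 on Ptpn11D61Y arrays and from 5686 to 8571 on control arrays.

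The promoters of 4 lineage genes are given because these genes belong to 1 lineage and 3 of them to myelin, as the 250 bases before the transcription start from RefSeq (mouse build GRCm38.p6, 5′ to 3′ on the gene's strand). Capitals mark words that are the core of the site of SOX factors such as SOX10, searched on either strand. The words were ACAAAG and, with the other base that these factors accept near the end, ACAATG, and likewise TCAAAG together with its counterpart in the other form, TCAATG.
Pdgfra, chr5:75152001-75152250, plus strand: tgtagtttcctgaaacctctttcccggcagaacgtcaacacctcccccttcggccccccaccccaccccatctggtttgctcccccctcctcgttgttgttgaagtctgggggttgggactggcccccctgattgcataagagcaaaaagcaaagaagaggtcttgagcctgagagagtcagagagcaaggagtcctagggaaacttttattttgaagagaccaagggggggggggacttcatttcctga
Plxnb3, chrX:73756853-73757102, plus strand: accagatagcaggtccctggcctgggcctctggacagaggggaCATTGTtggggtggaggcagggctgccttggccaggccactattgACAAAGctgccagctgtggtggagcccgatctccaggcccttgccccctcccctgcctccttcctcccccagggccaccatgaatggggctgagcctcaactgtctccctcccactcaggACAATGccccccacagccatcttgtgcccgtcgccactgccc
Mag, chr7:30914864-30915113, minus strand: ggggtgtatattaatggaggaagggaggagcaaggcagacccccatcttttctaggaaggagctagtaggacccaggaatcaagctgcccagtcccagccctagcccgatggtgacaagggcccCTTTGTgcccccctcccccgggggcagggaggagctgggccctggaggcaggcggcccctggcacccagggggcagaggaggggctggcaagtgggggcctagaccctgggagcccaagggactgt
Mog, chr17:37023399-37023648, minus strand: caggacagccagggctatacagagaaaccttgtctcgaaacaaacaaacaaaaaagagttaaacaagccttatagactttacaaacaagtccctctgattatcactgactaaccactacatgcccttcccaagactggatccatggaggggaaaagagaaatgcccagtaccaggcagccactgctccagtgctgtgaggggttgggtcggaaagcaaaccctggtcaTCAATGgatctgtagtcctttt
Plxnb3 held 3 words, beginning 207, 162 and 42 bases before the start, Mag held 1 at 126 bases (at the first of its 3 starts) and Mog 1 at 22 bases, while Pdgfra held none. At least 1 word stood in 10 of 13 myelin genes with a window (76.9%) and in 5 of 11 precursor genes (45.5%). The share was 24 of 56 (42.9%) of all higher genes with a window, 6 of 17 (35.3%) of the lower genes, 35.4% of the 12680 measured genes with a window and 39.4% of all 32851 windows in the table. A gene counts here when the window of any of its starts holds a word, whereas the share of all windows counts each window alone. The words are short, and their presence is a description of these letters only.

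Interferon-responsive genes were a further group that lay mostly above 0. Of 18 genes of the type I interferon response, 16 lay above 0 with a median of 0.44, and Bst2 and Ddx58 passed the filter as higher. Of 9 interferon-inducible GTPase genes, 8 lay above 0 with a median of 0.26, and Irgm2 and Gbp10 passed. Without the GTPase gene that earlier results had named, 7 of 8 lay above 0 (median 0.22) and 1 passed. Of all 16273 genes 50.8% lay above 0 and 0.584% passed the filter either way. Bst2, or tetherin, which holds budding virus at the cell surface, had log2 signals of 5.94, 6.11 and 6.50 on the Ptpn11D61Y arrays, against 5.20, 5.10 and 5.87 on the control arrays. The groups were apart by the small gap between Ptpn11D61Y replicate 1 and control replicate 3 (0.80 ± 0.30). Ddx58, the RNA sensor RIG-I, had 6.41, 6.59 and 7.43 on the Ptpn11D61Y arrays, against 5.87, 6.26 and 6.04 on the control arrays (0.75 ± 0.29), with Ptpn11D61Y replicate 3 far above the rest. Irgm2 had 5.60, 5.33 and 6.19 on the Ptpn11D61Y arrays, against 4.36, 5.40 and 4.95 on the control arrays, so that the groups overlapped (0.80 ± 0.32). Gbp10 had 6.23, 5.57 and 5.78 on the Ptpn11D61Y arrays, against 5.19, 4.84 and 5.03 on the control arrays, and these did not overlap (0.84 ± 0.35). The Gbp genes are near-copies of each other, so probes of Gbp10 may also read its relatives. Without Ptpn11D61Y replicate 3 the differences of Bst2 (0.64), Ddx58 (0.44) and Irgm2 (0.56) were smaller and missed the filter, and that of Gbp10 missed it at 0.88, no smaller than with all arrays. The filter was also missed without control replicate 1 by Bst2 (0.70), Ddx58 (0.66) and Irgm2 (0.53). Bst2 (0.65) and Gbp10 (0.75) missed it without control replicate 2, Ddx58 (0.75), Irgm2 (0.83) and Gbp10 (0.84) without control replicate 3, and Gbp10 (0.65) without Ptpn11D61Y replicate 1.

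The rest of the interferon genes varied widely. Rsad2, the antiviral enzyme viperin, differed by 1.76 ± 0.94, Ifit1 by 0.82 ± 0.69, Isg15 by 0.45 ± 0.38, Irf7 by 0.28 ± 0.31 and Cxcl10 by 0.35 ± 1.45, and none of them passed the filter. Ifi35 (-0.35 ± 0.24) and Ifi27 (-0.12 ± 0.28) were the 2 response genes below 0. Relative to the control mean, the median of the response list was -0.12, 0.55 and 1.05 on Ptpn11D61Y replicates 1, 2 and 3, against -0.27, -0.02 and 0.29 on control replicates 1, 2 and 3. The list was thus highest on Ptpn11D61Y replicate 3, the array with the choroid plexus genes, and its median difference was 0.24 without that array. Whether the choroid plexus tissue of that array took part in the level of these genes was not tested. Outside the lists, and picked after their values were seen, Apobec3, a restriction factor of retroviruses, was higher with 6.39, 6.38 and 6.53 on the Ptpn11D61Y arrays, against 5.29, 5.86 and 5.80 on the control arrays (0.78 ± 0.30), and Epsti1 was higher by 0.77 ± 0.33 with overlapping groups. Apobec3 missed the filter without Ptpn11D61Y replicate 3 (0.73) or control replicate 1 (0.60), and Epsti1 without Ptpn11D61Y replicate 1 (0.60), Ptpn11D61Y replicate 3 (0.82), control replicate 2 (0.73) or control replicate 3 (0.49).

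The same stretch of 250 bases is given for 3 higher genes that hold the word GAAA, 2 bases of any kind, then GAAA on either strand, which is the core of the element through which interferons act. Capitals mark it.
Bst2, chr8:71537473-71537722, minus strand: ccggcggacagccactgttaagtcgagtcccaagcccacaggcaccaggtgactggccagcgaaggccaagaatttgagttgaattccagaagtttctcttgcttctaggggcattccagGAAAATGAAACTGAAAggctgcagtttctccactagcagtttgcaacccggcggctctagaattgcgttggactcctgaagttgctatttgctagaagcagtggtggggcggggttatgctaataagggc
Irgm2, chr11:58214727-58214976, plus strand: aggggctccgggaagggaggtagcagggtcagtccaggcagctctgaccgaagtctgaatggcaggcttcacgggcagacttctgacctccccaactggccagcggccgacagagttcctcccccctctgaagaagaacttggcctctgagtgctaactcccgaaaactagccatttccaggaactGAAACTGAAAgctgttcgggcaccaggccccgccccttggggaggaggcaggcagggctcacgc
Clec2d, chr6:129180365-129180614, plus strand: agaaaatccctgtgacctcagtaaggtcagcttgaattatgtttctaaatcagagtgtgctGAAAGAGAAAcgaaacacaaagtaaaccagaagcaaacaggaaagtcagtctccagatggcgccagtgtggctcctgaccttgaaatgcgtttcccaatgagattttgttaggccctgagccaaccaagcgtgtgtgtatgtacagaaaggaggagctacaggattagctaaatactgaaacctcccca
Bst2 held 2 overlapping words that began 130 and 124 bases before the start, Irgm2 held 1 at 64 bases and Clec2d 1 at 189 bases. The word stood in 7 of 14 interferon response genes with a window (50%) and in 5 of 5 GTPase genes, in 0 of 11 precursor and 0 of 13 myelin genes, and in 2.98% of all windows. Of the 56 higher genes with a window 5 held it (8.93%), which were Apobec3, Bst2, Clec2d, Irgm2 and Ranbp3l, against 0 of 17 lower genes and 3.02% of the measured genes. Genes and windows were counted as for the SOX words. Clec2d was in neither interferon list.

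Clec2d and Thbs4 were the higher genes with the smallest unadjusted p. Clec2d, a C-type lectin-like ligand of a natural killer cell receptor, had 7.44, 7.79 and 7.60 on the Ptpn11D61Y arrays, against 6.47, 6.75 and 6.72 on the control arrays (0.96 ± 0.18). The groups lay well apart, and the difference stayed between 0.87 and 1.05 when any array was left out. Thbs4, a secreted thrombospondin of the matrix, had 7.20, 7.77 and 7.81 on the Ptpn11D61Y arrays, against 6.63, 6.53 and 5.59 on the control arrays (1.34 ± 0.30). Control replicate 3 was far below the others, and without it the difference was 1.01. C4b, a complement component, had 6.90, 6.77 and 6.63 on the Ptpn11D61Y arrays, against 6.11, 5.72 and 6.35 on the control arrays (0.71 ± 0.20). Its groups were apart, but it missed the filter without control replicate 2 (0.54), and it was the only one of 16 complement genes to pass, with Serping1, an inhibitor of C1, next (0.55 ± 0.26) and C1qa (0.00 ± 0.17) and C1qc (-0.03 ± 0.39) near 0.

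Several other higher genes had groups apart. Plekhg3 had 6.68, 6.76 and 7.13 on the Ptpn11D61Y arrays, against 5.84, 6.28 and 6.04 on the control arrays (0.80 ± 0.20). Nde1, which works with dynein at the centrosome of dividing neural progenitors, had 7.03, 6.60 and 6.89 on the Ptpn11D61Y arrays, against 5.61, 6.24 and 6.13 on the control arrays (0.85 ± 0.23). Both were apart between the groups and passed the filter whichever array was left out. Grem1, a secreted antagonist of BMPs, had 5.88, 5.88 and 5.57 on the Ptpn11D61Y arrays, against 4.92, 5.25 and 4.87 on the control arrays (0.77 ± 0.24). Hhip, which binds hedgehog ligands, had 7.13, 6.43 and 6.63 on the Ptpn11D61Y arrays, against 5.48, 6.33 and 5.96 on the control arrays (0.80 ± 0.26). Nkd1, an inhibitor of Wnt signalling, had 6.15, 6.26 and 6.19 on the Ptpn11D61Y arrays, against 4.64, 5.57 and 5.69 on the control arrays (0.90 ± 0.28). In Hhip and Nkd1 control replicate 1 was far below the other control arrays, and without it they missed the filter (0.58 and 0.57). Slc12a2, the chloride importer NKCC1, averaged 8.57 ± 0.39 on the Ptpn11D61Y arrays and 7.79 ± 0.39 on the control arrays (mean ± SD, difference 0.78 ± 0.24), with Ptpn11D61Y replicate 3 the highest and control replicate 1 the lowest of 6 values. It missed the filter without Ptpn11D61Y replicate 3 (0.57) or control replicate 1 (0.56). No gene passed among the other 38 of the Wnt list or the other 23 of the BMP list, besides Nkd1 and Grem1, and the next in each were the Wnt receptor Fzd6 (0.43 ± 0.23) and the inhibitory Smad7 (0.51 ± 0.22). Col8a2, a chain of type VIII collagen, had 6.22, 5.19 and 5.57 on the Ptpn11D61Y arrays, against 4.53, 4.54 and 4.77 on the control arrays (1.05 ± 0.34), and passed whichever array was left out.

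Besides the choroid plexus list, the remaining cell types had smaller median differences. Of 15 astrocyte markers 13 lay above 0 (median 0.16), of 14 microglia markers 10 (median 0.10), and neither list had a gene past the filter. The astrocyte median turned below 0 without Ptpn11D61Y replicate 2 (-0.09), without control replicate 1 (-0.22) and with array weights (-0.02), and the microglia median without control replicate 1 (-0.09). Their leading genes were Aldh1l1, a folate enzyme (0.37 ± 0.26), and the gap junction protein Gja1 (0.40 ± 0.48) in astrocytes, and the fractalkine receptor Cx3cr1 (0.44 ± 0.21) and the purine receptor P2ry12 (0.25 ± 0.24) in microglia. Pdgfra also marks meningeal fibroblasts, of whose 13 markers 10 lay above 0 (median 0.21, and 0.03 without Ptpn11D61Y replicate 3). Of 12 mural cell markers 12 lay above 0 (median 0.22), again with none past the filter, and the largest differences were those of Acta2 (0.73 ± 0.40) and Tagln (0.60 ± 0.34). With 1 array left out these ranged from 0.33 without Ptpn11D61Y replicate 3 to 1.24 without Ptpn11D61Y replicate 2 for Acta2, and from 0.41 without control replicate 2 to 0.91 without Ptpn11D61Y replicate 2 for Tagln. Of 14 endothelial markers 13 lay above 0 (median 0.29), and Slco1a4, an organic anion transporter of the blood-brain barrier, passed with 6.44, 5.46 and 6.56 on the Ptpn11D61Y arrays, against 4.95, 5.66 and 5.35 on the control arrays. Its groups overlapped at Ptpn11D61Y replicate 2. It missed the filter without Ptpn11D61Y replicate 1 (0.69), Ptpn11D61Y replicate 3 (0.63), control replicate 1 (0.65) or control replicate 3 (0.85), and with a replicate block in the 6 basal arrays, as did Irgm2. Tek, the angiopoietin receptor, differed by 0.85 ± 0.39 and did not pass. Without the 2 endothelial markers that earlier results had named, 11 of 12 lay above 0 (median 0.29) and 0 passed. The summed signal of the endothelial list ranged from 1882 to 4833 on Ptpn11D61Y arrays and from 1796 to 3471 on control arrays, and the part of vessels in the higher genes was not tested. Of 16 pyramidal and granule neuron markers 4 lay above 0 (median -0.13) and of 36 synaptic vesicle and scaffold genes 10 (median -0.11), with none past the filter. Both medians turned above 0 without Ptpn11D61Y replicate 1 (0.06 and 0.07), and the synaptic one also without control replicate 2 (0.01) or control replicate 3 (0.05). The leading genes were Calb1, the calcium buffer calbindin (-0.36 ± 0.32), and Wfs1 (0.50 ± 0.49) of the neuron markers, and the vesicle proteins Syn2 (-0.69 ± 0.54) and Sv2b (-0.51 ± 0.44) of the synaptic genes. Markers of brain regions next to the hippocampus gave 7 of 13 above 0, and Zic1, a transcription factor of thalamus and septum, passed with 7.26, 6.31 and 6.95 on the Ptpn11D61Y arrays, against 6.09, 6.13 and 6.15 on the control arrays (0.72 ± 0.30). Its control arrays were nearly equal, while its Ptpn11D61Y arrays varied, and it passed in only 1 of 6 fits without 1 array, that without Ptpn11D61Y replicate 2 (0.98). Prkcd, a protein kinase C of thalamic neurons, differed by 0.54 ± 0.33.

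**Figure D3:**
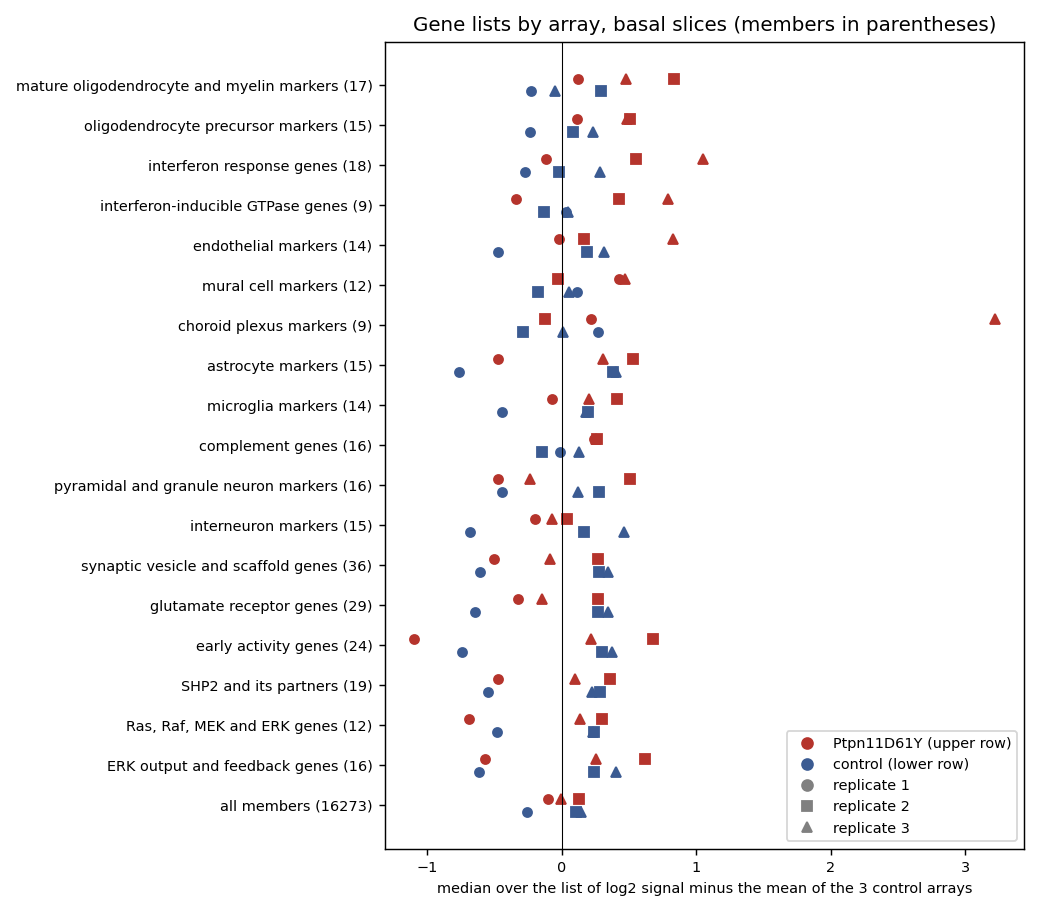
Median over each gene list of the log2 signal minus the mean of the 3 control arrays (horizontal axis), for the basal Ptpn11D61Y arrays (red, upper row) and control arrays (blue, lower row), the marker shape giving the replicate number. The choroid plexus list reaches 3.22 on Ptpn11D61Y replicate 3 alone. The myelin list lies between 0.12 and 0.83 on Ptpn11D61Y arrays and between -0.23 and 0.29 on control arrays. Replicate 1 is the lowest array of both genotypes for the neuronal, SHP2, Ras and ERK lists. Replicate 3 differs between the genotypes in the synaptic list (-0.09 on Ptpn11D61Y, 0.34 on control).

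The genes of the SHP2 pathway itself did not pass the filter. Ptpn11 had log2 signals of 8.37, 8.79 and 8.69 on the Ptpn11D61Y arrays, against 8.56, 8.88 and 8.68 on the control arrays, and these overlapped. The difference was -0.09 ± 0.20 (95% interval -0.54 to 0.36, limma adjusted p = 1). The probes measure Ptpn11 RNA of both alleles together, so this level does not check the labels. Emx1, whose locus carries Cre, had 5.52, 5.21 and 5.48 on the Ptpn11D61Y arrays, against 5.38, 5.50 and 4.95 on the control arrays (0.13 ± 0.25, 95% interval -0.42 to 0.68). Of 19 genes of SHP2 and its partners 8 lay above 0 (median -0.02), of 12 Ras, Raf, MEK and ERK genes 4 (median -0.04), of 16 ERK output and feedback genes 9 (median 0.02) and of 24 early activity genes 8 (median -0.04). None of these genes passed in either direction, and each of the 4 medians turned its sign when single arrays were left out. The leading genes were the adaptor Shc1 (0.25 ± 0.18) and the phosphatase Ptpn6 (0.13 ± 0.21) of the partners, the MEK gene Map2k1 (-0.48 ± 0.30) and Nras (0.30 ± 0.30), the ERK phosphatase Dusp4 (0.28 ± 0.26) and the ERK-induced factor Etv5 (0.73 ± 0.76), and the early genes Btg2 (-0.20 ± 0.27) and Klf2 (0.12 ± 0.19). The differences of Ptpn11 and Emx1 were as near 0 as to turn their sign without Ptpn11D61Y replicate 1 (0.04 for Ptpn11) or control replicate 3 (-0.03 for Emx1). Among the 30 genes nearest to Ptpn11, 15 on each side, 17 lay above 0 and 0 passed. Among the 30 nearest to Emx1, 12 lay above 0 and 1 passed, Nat8f4, with 6.13, 5.67 and 5.84 on the Ptpn11D61Y arrays, against 4.68, 5.42 and 5.52 on the control arrays (0.67 ± 0.27). Nat8f4 missed the filter without control replicate 1 (0.41), Ptpn11D61Y replicate 1 (0.55) or Ptpn11D61Y replicate 3 (0.69).

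Of the 9 lower genes with groups apart, 8 are described here, Nr2f2, Lhx9, Tacr3, Zfp235, Isl1, Tceanc, Hba-x and C2cd4c, and the other was the predicted gene Gm14461. Lower genes that are bright or belong to a gene list, such as Crym, Grp, Sstr1 and Nos1, are given beside them. Nr2f2, the nuclear receptor COUP-TFII, had log2 signals of 7.22, 8.29 and 8.19 on the Ptpn11D61Y arrays, against 8.53, 8.84 and 10.28 on the control arrays. The groups did not overlap, and control replicate 3 was far above the rest. The difference was -1.32 ± 0.55. It missed the filter without control replicate 3 (-0.78) or Ptpn11D61Y replicate 1 (-0.98). Lhx9, a LIM homeodomain factor, had 5.99, 5.89 and 4.80 on the Ptpn11D61Y arrays, against 6.20, 6.15 and 6.89 on the control arrays (-0.85 ± 0.36). Its groups were apart, and it missed the filter without Ptpn11D61Y replicate 3 (-0.47) or control replicate 3 (-0.61). Crym, a thyroid hormone-binding crystallin, had 8.41, 8.87 and 7.18 on the Ptpn11D61Y arrays, against 8.70, 8.92 and 9.69 on the control arrays (-0.95 ± 0.42). Its groups overlapped, with both replicates 3 at the extremes.

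In another 5 of the lower genes, all at log2 signals near 5 or 6, control replicate 3 was the highest array for C2cd4c alone. Zfp235, a zinc finger protein, had 5.52, 5.93 and 5.85 on the Ptpn11D61Y arrays, against 6.05, 6.66 and 6.61 on the control arrays (-0.68 ± 0.25). Isl1, a LIM homeodomain factor, had 5.40, 5.27 and 5.13 on the Ptpn11D61Y arrays, against 6.35, 5.69 and 5.54 on the control arrays (-0.60 ± 0.25), with control replicate 1 the highest, and the difference was -0.35 without it. C2cd4c had 4.75, 5.10 and 4.62 on the Ptpn11D61Y arrays, against 5.29, 5.47 and 5.84 on the control arrays (-0.71 ± 0.32). These 3 genes were apart by small gaps. Tceanc, related to transcription elongation factors, had 4.80, 5.08 and 5.26 on the Ptpn11D61Y arrays, against 5.97, 5.41 and 5.70 on the control arrays (-0.65 ± 0.25). Hba-x, an embryonic alpha-like globin, had 5.15, 5.80 and 5.32 on the Ptpn11D61Y arrays, against 6.99, 5.93 and 5.96 on the control arrays (-0.87 ± 0.38). Control replicate 1 was the highest array for both, and without it Tceanc (-0.51) and Hba-x (-0.52) missed the filter. Zfp235, Isl1, Tceanc and Hba-x missed the filter in 3 of 6 fits without 1 array and C2cd4c in 4 of 6. The lowest sizes were -0.55 for Zfp235, without Ptpn11D61Y replicate 1, and -0.56 for C2cd4c, without control replicate 3.

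Grp, the gastrin-releasing peptide, had 7.00, 6.90 and 5.46 on the Ptpn11D61Y arrays, against 6.64, 7.53 and 8.50 on the control arrays (-1.11 ± 0.49). The groups overlapped. Tacr3, the neurokinin B receptor, had 5.49, 4.70 and 4.99 on the Ptpn11D61Y arrays, against 5.63, 5.69 and 6.63 on the control arrays (-0.92 ± 0.41), apart by a small gap. Sstr1, a somatostatin receptor, had 6.01, 5.39 and 5.52 on the Ptpn11D61Y arrays, against 5.67, 6.54 and 7.02 on the control arrays (-0.77 ± 0.32), and these overlapped. Nos1, the neuronal nitric oxide synthase of a class of interneurons, had 7.21, 7.53 and 7.12 on the Ptpn11D61Y arrays, against 7.46, 8.13 and 8.82 on the control arrays (-0.85 ± 0.34). It was the only one of 15 interneuron markers past the filter, and 6 of the 15 lay above 0. Calb2, calretinin, differed by -0.85 ± 0.49 and did not pass. Of 29 neuropeptide and receptor genes 11 lay above 0 (median -0.09), and Grp and Sstr1 passed as lower. With the replicate number as a block in the 6 basal arrays alone, Lhx9, Crym, Grp and Sstr1 missed the filter. Without control replicate 3, Nos1 (-0.51), Tacr3 (-0.60), Crym (-0.66), Grp (-0.64) and Sstr1 (-0.46) missed the filter. Without Ptpn11D61Y replicate 3, Nos1 (-0.77), Tacr3 (-0.88), Crym (-0.47), Grp (-0.61) and Sstr1 (-0.71) missed it.

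**Figure D4:**
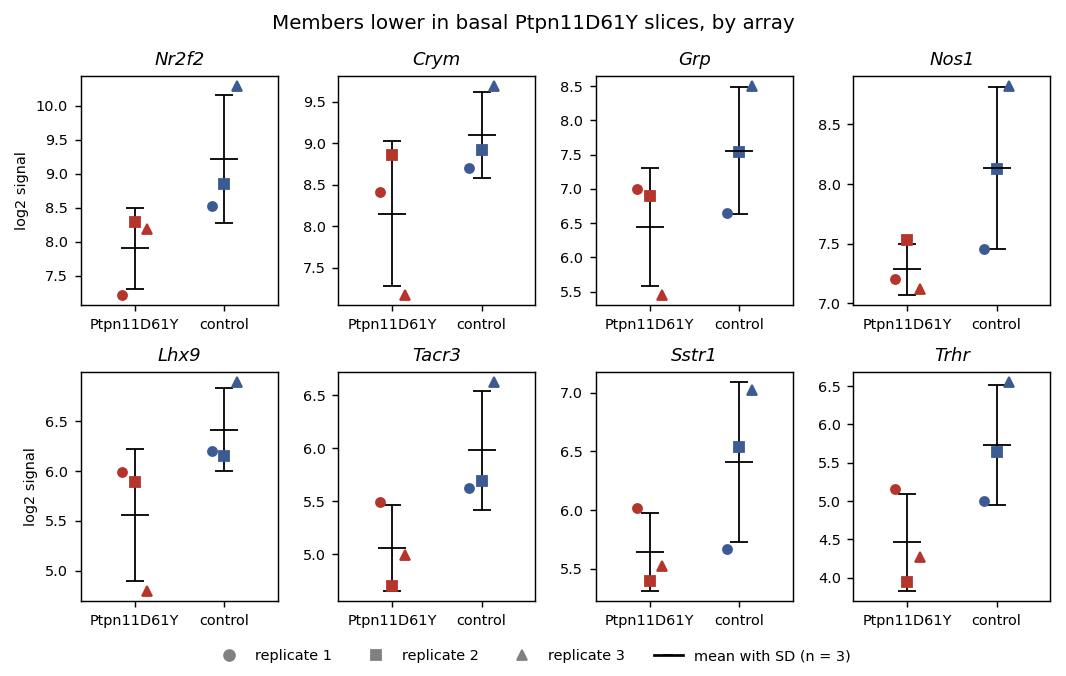
Log2 signal of 8 genes past the filter and lower in basal Ptpn11D61Y slices (red) than in control slices (blue), 1 point an array with the mean and SD of 3 arrays, the marker shape giving the replicate number, and each panel with its own vertical axis. Control replicate 3 is the highest array in all 8 panels, at 10.28 for Nr2f2.

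Genes that mark the ventral pole of the hippocampus were listed after the values of the lower genes had been seen. The list held Nr2f2, Dcn, Ccn3, Trhr, Grp, Pde11a, Htr2c, Oxtr, Dlk1 and Gpc3. Of these 10 genes 9 lay below 0 (median -0.95), and 4 passed the filter as lower, Nr2f2, Trhr, Grp and Pde11a. Since these 4 are themselves among the lower genes that prompted the list, its direction is not separate evidence, and the levels are given as a description. The median level of the list was 7.03, 6.36 and 5.61 on Ptpn11D61Y replicates 1, 2 and 3, against 6.28, 6.66 and 7.94 on control replicates 1, 2 and 3. Control replicate 3 was highest for 9 of the 10 genes, and Ptpn11D61Y replicate 3 lowest for 5. Trhr, the receptor of thyrotropin-releasing hormone, had 5.16, 3.95 and 4.28 on the Ptpn11D61Y arrays, against 5.00, 5.64 and 6.55 on the control arrays. It missed the filter without Ptpn11D61Y replicate 2 (-1.01) or control replicate 3 (-0.86), and Pde11a without Ptpn11D61Y replicate 3 (-0.44), control replicate 2 (-1.15) or control replicate 3 (-0.68). Dcn, the matrix proteoglycan decorin, had 7.96, 6.88 and 7.32 on the Ptpn11D61Y arrays, against 7.24, 8.20 and 10.21 on the control arrays (-1.17 ± 0.70), and did not pass. Of 3 genes of the dorsal pole, Wfs1 was at 8.35, 9.64 and 9.81 on the Ptpn11D61Y arrays, against 8.51, 9.73 and 8.05 on the control arrays, and Lct likewise was lowest on control replicate 3 (5.10), while Spink8 was not. The part that the position of the slices along the hippocampus had in the lower genes was not tested.

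Of 512 microRNA clusters with a symbol of their own 181 reached the minimum signal, and 80 of these lay above 0 (median -0.02). Of the 181, only Mirlet7a-1 passed the filter, against 95 of all 16273 genes (0.584%). With 1 gene past the filter, the share of microRNA genes cannot be told apart from that of all genes. The microRNA clusters under the minimum signal are not in this count. Mirlet7a-1, a gene of the let-7 family, which represses growth genes, had log2 signals of 5.58, 5.84 and 5.24 on the Ptpn11D61Y arrays, against 6.88, 5.77 and 6.01 on the control arrays. The groups overlapped, and control replicate 1 was the highest array by far (difference -0.67 ± 0.29). Without it the difference was -0.34, and the filter was missed there and without Ptpn11D61Y replicate 1 (-0.69) or Ptpn11D61Y replicate 3 (-0.51). The array probes read the precursor transcript. The mature strand is given from RefSeq (GRCm38.p6) with its seed, bases 2 to 8, in capitals.
mmu-let-7a-5p, chr13:48538239-48538260, minus strand: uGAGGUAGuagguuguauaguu
Among the genes that the study followed by PCR, Erbb3 and Pdgfra are given above. Efna4, an ephrin ligand, lay under the minimum signal, with means of 3.97 on Ptpn11D61Y arrays and 4.93 on control arrays (-0.96 ± 0.31), and the microRNA genes Mir30c-1 (-0.72 ± 0.31), Mir148a (-1.35 ± 0.56) and Mir126a, which shares its cluster with the endothelial gene Egfl7 (1.37 ± 0.61), were dim as well. All 4 met the fold and unadjusted p of the filter, and none of them is counted among the genes above.

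The stimulated slices, taken to be of the same animals, showed smaller differences for most of these genes. In stimulated slices 78 genes (0.479%) passed the filter as higher and 3 (0.0184%) as lower, and 8007 (49.2%) lay above 0. Of the 72 genes higher in basal slices 66 lay above 0 after stimulation, with a median of 0.31 against 0.77 in basal slices, and 4 passed again. Of the 23 lower genes 17 lay below 0, with a median of -0.25 against -0.85, and 0 passed again. The basal medians were selected by the filter, and those of the stimulated slices were not. The differences in stimulated slices were 1.02 for Thbs4, 0.79 for Clec2d, 0.72 for C4b, 0.65 for Mag and 0.46 for Pdgfra. The precursor list gave 15 of 15 genes above 0 (median 0.31) and the myelin list 17 of 17 (median 0.38). The interferon response list gave 16 of 18 (median 0.39) and the choroid plexus list 6 of 9 (median 0.07). By replicate number these arrays were taken to share their animals with the basal arrays, and they are not treated as an independent sample. Residuals of same-numbered basal and stimulated arrays correlated in Ptpn11D61Y (r = 0.554, 0.392 and 0.19). In control they hardly did (r = 0.0518, -0.0104 and 0.0364). Whether the animals were shared was not tested further. A difference between basal and stimulated slices in the genotype effect itself reached an unadjusted p under 0.05 for 38 genes (0.234%), none with an adjusted p under 0.05. That fit has no term for the animal. With the animal as a fixed term the number was 78, and with the animal as a random block (correlation 0.292) it was 104, again with no adjusted p under 0.05 in limma.

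**Figure D5:**
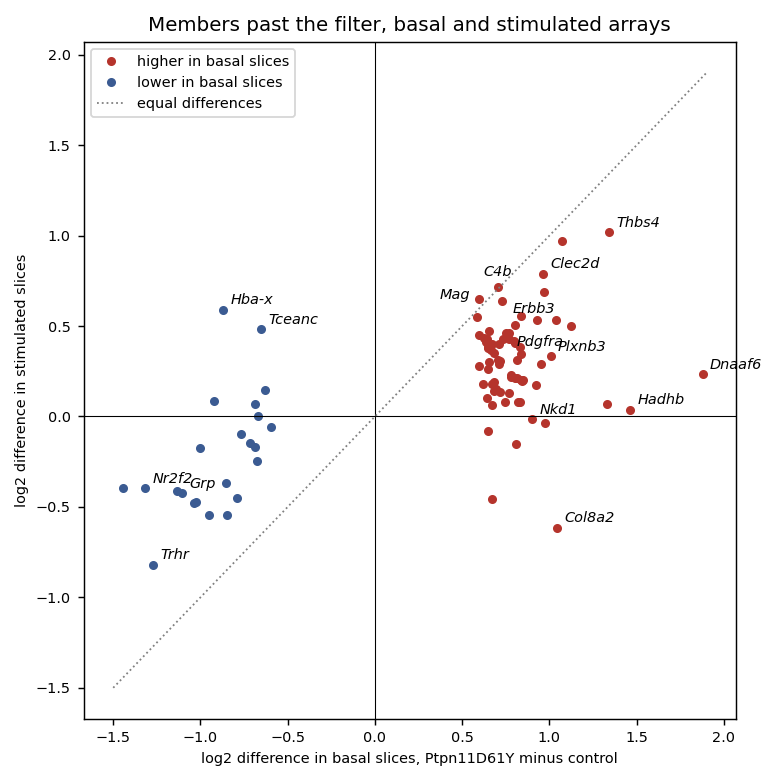
Log2 difference between Ptpn11D61Y and control in stimulated slices (vertical axis) against that in basal slices (horizontal axis) for the genes past the filter in basal slices, red for higher and blue for lower, with a dotted line of equal differences. Ttr, at 3.46 and 1.30, lies outside the axes, and most points lie nearer to 0 in stimulated slices. Several points lie on the other side of 0, Col8a2, Hba-x and Tceanc among them.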

How the data were processed

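Per the file headers and the labels, the deposited values are linear signal intensities from Affymetrix Mouse Gene 2.0 ST arrays, which the authors summarised per transcript cluster with PLIER in Expression Console. The methods name background correction, quantile normalization and a log2 scale, whereas the deposited values are linear and their array medians differ. Of 41345 clusters, 697 to 1381 per basal array lay under a signal of 1 and were set to it before log2, and the median signal per basal array was 44.3 to 58.1. Spread was measured between 3 animals per genotype, and this number limits the precision. The error of each basal difference was pooled over all 12 arrays. An animal taken to be on a basal and a stimulated array thus enters that error with both. Group means of all 12 arrays were fitted with limma 3.58.1 in R 4.3.3 (lmFit, eBayes with trend, 8 residual degrees of freedom), and Ptpn11D61Y minus control was tested in basal slices with Benjamini-Hochberg adjustment over all clusters. The filter was a fold of at least 1.5 with an unadjusted p under 0.05, where the methods used a one-way ANOVA. The text names the 14 higher and up to 14 lower genes past the filter with groups apart and the smallest p (predicted genes left out), those past the filter with a mean log2 signal of at least 8, the genes past the filter and the 2 of largest moderated t of each list described, Ptpn11, Emx1 and the genes followed by PCR. Genes outside this rule are named as chosen after their values were seen, or as other members of a list. The genes and lists were chosen with earlier results of these data known. Symbols came from the platform annotation (23521 clusters with 1 symbol, 1820 with several, 16004 with none), and 16165 genes matched RefSeq. Residuals of same-numbered arrays of both genotypes correlated (r = 0.557, 0.358 and 0.186 over all clusters). Ptpn11D61Y replicate 2 with control replicate 3 (0.274) and Ptpn11D61Y replicate 3 with control replicate 2 (0.208) did so too. Pairs of replicate 1 with another number lay between -0.459 and -0.284. These values set replicate 1 apart but do not separate replicates 2 and 3. The numbers were still taken to pair the samples, and a replicate block was fitted as an alternative. Other alternatives were ANOVA, the 6 basal arrays alone, centred arrays, repeated quantile normalization, an offset of 16, other signal minimums, array weights and leaving out single arrays. Fits of the interaction with the animal as a term were added after the data were seen. The fit was tested on simulated data.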

Additional observations from a re-analysis of the deposited data

Results flagged for a closer look

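The genotype difference was larger in basal than in stimulated slices, by the interaction in limma, for 2 of the higher genes named above. Nkd1, the Wnt inhibitor, had a basal minus stimulated difference of 0.915 (log2, SE 0.402, limma adjusted p = 1). Col8a2, a chain of type VIII collagen, had one of 1.66 (SE 0.481, adjusted p = 1), with a difference of 1.05 in basal and -0.61 in stimulated slices. Of the lower genes, Tceanc, related to transcription elongation factors, had one of -1.13 (SE 0.353, adjusted p = 1), and Hba-x, an embryonic alpha-like globin, one of -1.46 (SE 0.537, adjusted p = 1). Each reached an unadjusted p under 0.05 and none passed the adjustment, and all 4 genes have a mean log2 signal under 6. Of all 16273 genes 0.234% reached an unadjusted p under 0.05 for this interaction in limma. The 4 genes were named for their basal difference, which also enters the interaction. Their values here are therefore a description and not a separate test. With the animal as a fixed term, limma gave unadjusted p of 0.0233 for Nkd1, 0.00546 for Col8a2, 0.0174 for Tceanc and 0.0464 for Hba-x, with an adjusted p of 1 for each. No explanation was tested.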

How the results depend on the processing

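The count of 95 genes past the filter depended on the processing, while the count past an adjusted p of 0.05 was 0 under every alternative run. The filter passed 33 genes by one-way ANOVA. By limma on the 6 basal arrays alone it passed 64 genes, of which 54 were among the 95. It passed 57 with an offset of 16, 181 with no minimum signal and 17 with a minimum of 7. With array weights it passed 660 genes, and from replicates 2 and 3 alone 386. With the replicate block it passed 176 genes on all 12 arrays and 154 on the 6 basal arrays. With 1 array left out it passed 60 to 272 genes, fewest without Ptpn11D61Y replicate 3 and most without Ptpn11D61Y replicate 1. The share of higher genes among those past the filter was 75.8%, and it was 63.1% with centred arrays, 62.7% with quantile normalization repeated, 41.4% with array weights, 42% from replicates 2 and 3, 38.9% without control replicate 1 and 90.8% without control replicate 3. The causes were not tested. Under the block on 12 arrays Hba-x alone of the named genes lost the filter, and on 6 arrays Lhx9, Crym, Slco1a4, Ttr, Irgm2, Col9a3, Sstr1, Grp and Mir30c-1 did. The 46 genes chosen by the naming rule that met the filter's limits were selected for a large difference. Where their groups did not overlap, leaving out arrays could not turn the sign. None of the 46 changed sign under the alternatives run. Of the 67 others 14 changed sign under at least 1, Ptpn11 and Emx1 among them, as did 37 of the 49 list medians (all genes counted as 1), whose size was at most 0.186 with all arrays. List medians moved by more than their spread in 15 of the 735 values recomputed. The interaction with stimulation reached an unadjusted p under 0.05 for 38 genes, for 78 with the animal as a fixed term and for 104 with it as a random block, both added after the data were seen. Of the 95 genes past the filter 45 had a mean log2 signal between 5 and 6, near the minimum of 5.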

Other observations

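Values of a few further genes past the filter, chosen after their values were seen, are given here. Ptprb, the endothelial phosphatase VE-PTP, had 6.70, 6.04 and 6.69 on the Ptpn11D61Y arrays, against 5.55, 6.11 and 5.99 on the control arrays. Heg1, an endothelial membrane protein, had 6.98, 7.47 and 8.46 on the Ptpn11D61Y arrays, against 6.27, 7.05 and 7.15 on the control arrays. Both overlapped between the groups and missed the filter in 3 of 6 fits without 1 array, with the lowest differences 0.43 for Ptprb without control replicate 1 and 0.40 for Heg1 without Ptpn11D61Y replicate 3. Slc17a6, the glutamate transporter VGLUT2, which is abundant in thalamus, had 6.49, 6.05 and 6.88 on the Ptpn11D61Y arrays, against 5.30, 6.17 and 4.59 on the control arrays, also with overlap, and missed the filter without Ptpn11D61Y replicate 3 (0.92) or control replicate 3 (0.74). Slc40a1, the iron exporter ferroportin, had 5.53, 5.42 and 5.18 on the Ptpn11D61Y arrays, against 4.57, 4.68 and 4.92 on the control arrays, and these were apart. It missed the filter without Ptpn11D61Y replicate 1 (0.58) or control replicate 1 (0.58). Of the 17 circadian clock genes 14 lay above 0 in basal slices (median 0.08, and -0.06 without Ptpn11D61Y replicate 2 or -0.13 without control replicate 1), and none passed the filter, the leading ones being Nr1d2 (0.48 ± 0.52) and Ciart (0.25 ± 0.31).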
